A study of Mus musculus with 4 samples.

Results

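The genes described here encode the proteins of the cytosolic ribosome. They were taken by name, as every gene of the array named Rpl or Rps with a number, together with Rplp0, Rplp1, Rplp2 and Rpsa, and without the Rps6k kinases, and each was represented by its brightest probe. The rule found 85 genes with 177 probes, out of 31829 gene names and 39429 probes, and 53 of them carried names of the large subunit and 32 of the small subunit. Of these, 83 genes with 174 probes entered the comparison, since with at least 1 virus both arrays showed the probe well above background. The testis paralog Rpl10l and Rps4y2 were well above background on no array and were not tested.

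RNA of Ebf1-/- Lin- cells from mouse fetal liver was measured on 4 single-dye Agilent mouse arrays, 2 of cells infected with the empty virus (EMPTY) and 2 of cells infected with the miR-195 virus. Ebf1 is a transcription factor of the B lineage, and Lin- cells are progenitors from which cells with markers of mature lineages had been depleted. All 4 samples lacked Ebf1, carried the GFP-bearing retroviral vector with or without the miRNA, and received SCF, IL-7 and Flt-ligand at 10 ng/mL each, and the methods describe OP9 stroma as the layer on which infected cells were grown. The labels do not say whether replicates came from separate cultures, so p-values measure only the spread between these samples, and with 2 arrays per virus the smallest p of an exact permutation test, two-sided, is 0.333. The insert was amplified from a human leukaemia cell line, embryos came from matings of heterozygous mice, and neither a wild-type sample nor a sorted fraction was measured here.

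A ribosome joins a small subunit, which reads the mRNA, to a large subunit, which forms the peptide bond. Most ribosomal proteins are needed in equal number, and the mRNAs of these proteins are among the most abundant of a dividing cell. Most of them begin with a cytosine followed by a run of pyrimidines, called a 5′ terminal oligopyrimidine (TOP) tract, through which mTORC1 controls their translation. Such control changes how much protein is made from an mRNA and need not alter its level, which is what an array measures. Blood formation is known to be sensitive to the dose of ribosomal proteins: in Diamond-Blackfan anaemia, a mutation in 1 of several of these genes impairs the formation of red cells.

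The miRNA that the virus expresses is shown first, since its seed (bases 2 to 8, in capitals) guides its pairing with mRNAs. It is given as the mouse RefSeq sequence of GRCm38.p6 (chr11:70235062-70235082, + strand).
miR-195a-5p: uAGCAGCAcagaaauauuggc
Rps24, a small subunit protein, is the only one of the 85 genes found in the list of predicted mouse targets that accompanies the study. Starts of transcription, from RefSeq on GRCm38.p6, follow for 8 of the genes described below, from 10 bases before to 20 bases from the annotated start on the strand of the gene. Capitals mark a run of at least 5 pyrimidines that opens with C within 5 bases of the start. Where a gene has several annotated starts, 1 is shown. The first 5 genes hold such a run and the last 3 do not, and they are shown because they stand for both outcomes of this search among the genes whose levels are given. A gene without a run at its annotated start may still have a TOP mRNA.
Rps24: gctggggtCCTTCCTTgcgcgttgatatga
Rps10: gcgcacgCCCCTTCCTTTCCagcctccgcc
Rps6: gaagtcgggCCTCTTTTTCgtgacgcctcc
Rpl15: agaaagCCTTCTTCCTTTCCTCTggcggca
Rplp2: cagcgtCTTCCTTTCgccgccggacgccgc
Rplp0: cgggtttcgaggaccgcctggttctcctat
Rpl6: acctcccgtcattgcttatagaccggaagc
Rpl3l: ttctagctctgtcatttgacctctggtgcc
The windows lie at chr14:24490668-24490697 (+) for Rps24, chr17:27635225-27635254 (-) for Rps10, chr4:86857348-86857377 (-) for Rps6 and chr14:18270967-18270996 (-) for Rpl15. Those of the others lie at chr7:141447641-141447670 (+) for Rplp2, chr5:115559457-115559486 (+) for Rplp0, chr5:121204491-121204520 (+) for Rpl6 and chr17:24727816-24727845 (+) for Rpl3l. A start window was found for 62 of the 83 tested genes, and 28 of them (45.2%) held such a run at 1 of their annotated starts, against 21.2% of all 27025 genes with a window. The search depends on the annotated start, which can lie some bases away from the start of the RNA. Genes with a run had a median log2 difference of 0.01 and genes without one a median of 0.04, both differences being miR-195 minus EMPTY.

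All 85 genes were found in the RefSeq annotation of GRCm38.p6, 80 by the accession of the brightest probe, 3 by that of another probe and 2 by an older name. The 83 tested genes lay on 18 chromosomes, with at most 14 on the same one, chromosome 7. The annotation also lists 314 pseudogenes named after 62 of these genes, as many as 23 for Rpl31. Such copies resemble the mRNA closely, so a probe may also detect the RNA of a copy or of a near-identical gene, and the values are uncertain to that extent. Of the older names, Rpl26l1 is annotated as a pseudogene of Rpl26, Rps3a as Rps3a1 and Rps4y2 as Rps4l.

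Between the viruses the ribosomal protein genes hardly differed. Levels are log2 signals minus the 75th percentile of all probes on the same array. The median level of the 83 genes was 7.50 and 7.71 with EMPTY and 7.79 and 7.56 with miR-195. The miR-195 values thus lay within or just above the range of the EMPTY values. The median of the 83 log2 differences was 0.02, beside 0.01 over all 19003 tested genes, and 49 genes were higher and 34 lower. This split followed the scaling of the arrays: it was 60 and 23 with the percentile taken over probes above background on all arrays, 36 and 47 after quantile normalization, and 11 and 72 after median scaling, which lowered the median of all probes to -0.08. It also followed single arrays, with 16 higher and 67 lower without miR-195 replicate 1, 79 and 4 without miR-195 replicate 2, 18 and 65 without EMPTY replicate 1, and 72 and 11 without EMPTY replicate 2. No direction of the family held under all of these settings. The differences ran from -0.32 for Rpl3l to 0.21 for Rpl21, and 67 were smaller than 0.1 and 81 smaller than 0.2 in either direction. The interquartile range of the differences was 0.096, against 0.25 for all tested genes. This comparison was not matched for level, as 74 of the 83 genes but only 620 other tested genes had a mean level of 6 or above. For bulk RNA, fewer cells of a type and less RNA per cell cannot be told apart.

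limma called 0 of the 83 genes at an adjusted p of 0.05, beside 0% of all 23731 tested probes. At an unadjusted p of 0.05, limma marked 1 of the 83, Rpl3l, while 8.34% of all tested probes passed. The methods' t-test marked 0 of the 83 at that threshold and 0 after adjustment, beside 4.78% and 0% of all tested probes. The levels on both miR-195 arrays lay on the same side of both EMPTY arrays for 5 of the 83 genes, beside 37.8% of all tested probes. Of these, 4 were higher with miR-195 (Rpl21, Rpl6, Rps14 and Rpl7, the last of which was singled out after its values were seen), where the background is 23.4%, and 1 was lower, Rpl3l, where it is 14.4%. The count of 5 rested on the scaling, since it was 31 after quantile normalization (15 of them higher), 15 with the percentile over probes above background on all arrays (14 higher) and 3 after median scaling (0 higher). Of all tested probes, 40.9%, 39.3% and 39.6% did not overlap under these settings, and 21.3%, 26.2% and 14% were higher. In 2 other settings the count stayed near 5. After a normexp background correction it was 4 (1 higher), beside 49.8% of all tested probes (39.4% higher). In the deposited log2 table it was 6 (2 higher), beside 37.4% (21.5% higher). With 1 array left out, a lone array is set against a pair, so the counts are not comparable with the count of 5. They were 23 without EMPTY replicate 1 (67.9% of all probes), 41 without EMPTY replicate 2 (64.5%), 47 without miR-195 replicate 1 (78.3%) and 65 without miR-195 replicate 2 (64.9%). The median standard error of a difference was 0.14, and the 95% intervals from limma covered 0 for 82 of the 83 genes. For the 77 genes outside the paralog group described below, these intervals reached from -0.64 at the lowest to 0.57 at the highest. Changes within them could not be detected with these arrays.

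**Figure D1:**
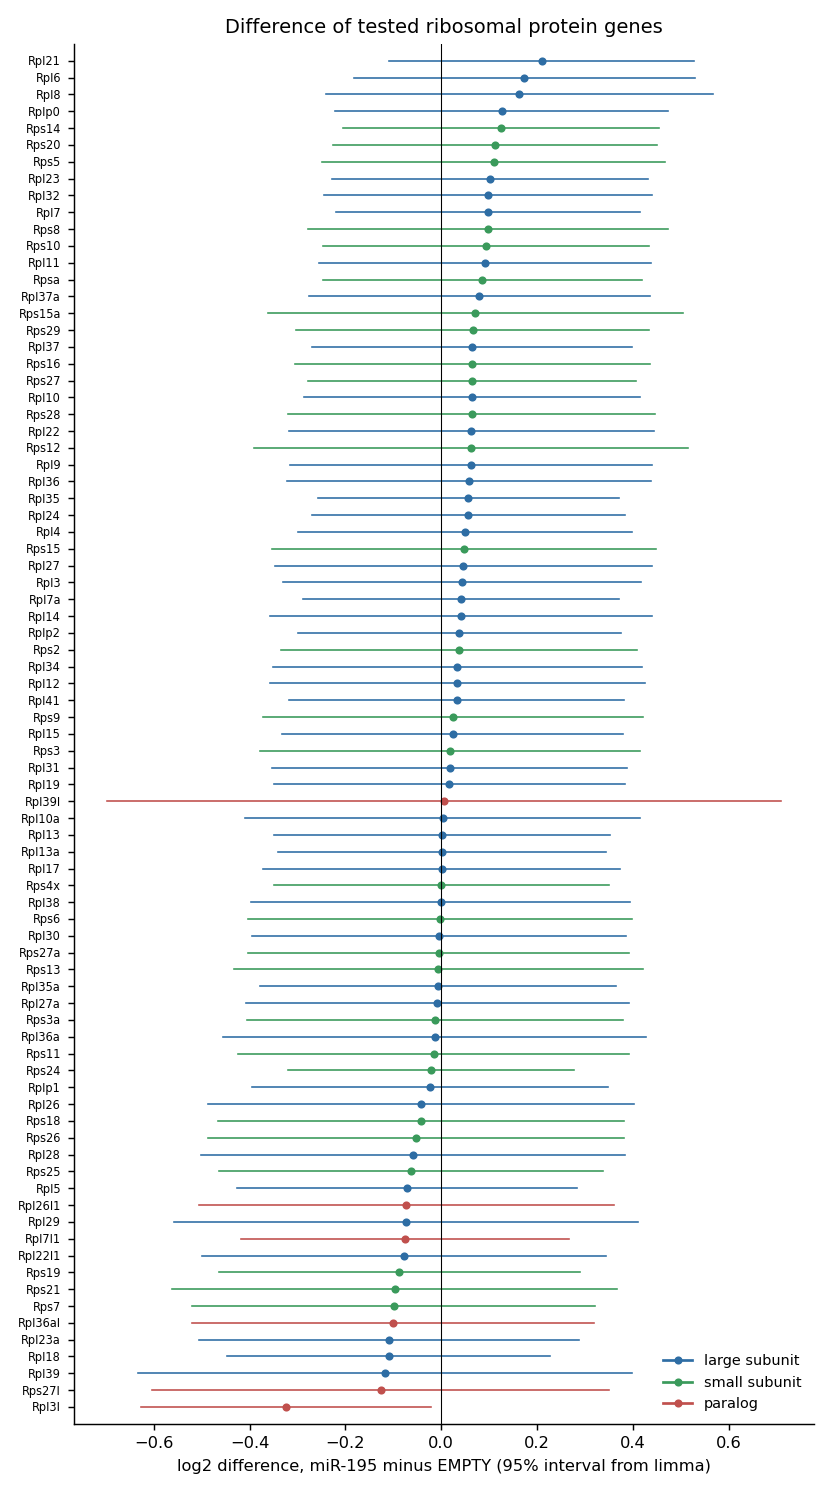
Log2 difference (miR-195 minus EMPTY, horizontal axis) of the brightest probe of 81 of the 83 tested genes, with the 95% interval from limma as a line and colours for large subunit, small subunit and the paralog group. The points lie between -0.32 and 0.21, and the interval of Rpl3l alone leaves out 0.

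The arrays of the same virus differed from each other more than the viruses did, and nearly all ribosomal protein genes shared this. EMPTY replicate 2 lay above EMPTY replicate 1 for 82 of the 83 genes, with a median log2 difference of 0.17. miR-195 replicate 2 lay below miR-195 replicate 1 for 81 of the 83, with a median log2 difference of -0.21. Over all tested genes the same medians were 0.07 and -0.02, so the shifts were larger in this family than in the whole table.

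A few orders of the arrays covered most of the genes. EMPTY replicate 1 held the lowest level for 40 genes and miR-195 replicate 2 for 42. Over all tested genes, these arrays were lowest for 33.6% and 34.5%. The highest level was on miR-195 replicate 1 for 63 genes and on EMPTY replicate 2 for 19. Over all tested genes, these arrays were highest for 22% and 27.2%. For 33 of the 83 genes the order from low to high was EMPTY replicate 1, miR-195 replicate 2, EMPTY replicate 2 and miR-195 replicate 1. For another 26 genes the first and the second of these changed places. For 15 genes the order was miR-195 replicate 2, EMPTY replicate 1, miR-195 replicate 1 and EMPTY replicate 2. In each of these orders the EMPTY and the miR-195 arrays alternate or enclose each other.

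**Figure D2:**
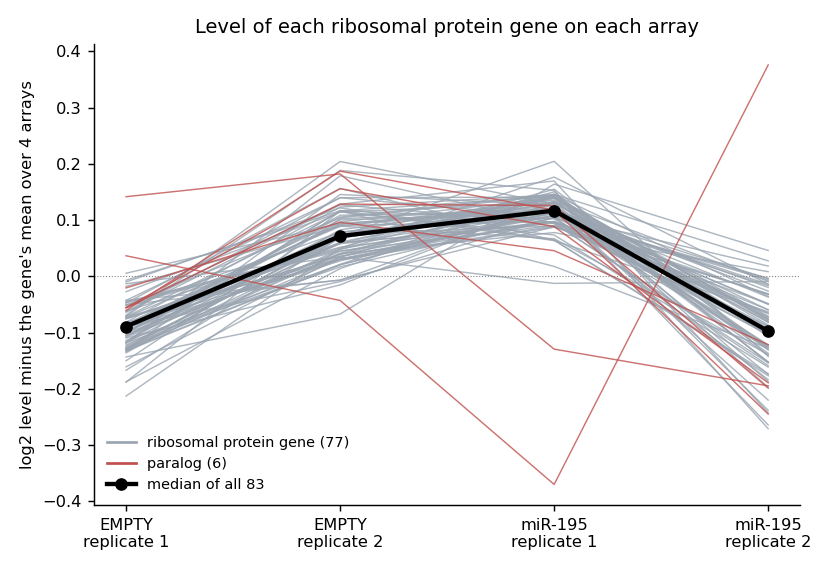
Log2 level of each of the 83 tested genes on each of the 4 arrays, minus the mean of the gene over the arrays, with the paralog group in red and the median in black. Levels rise from EMPTY replicate 1 to EMPTY replicate 2 for 82 genes and fall from miR-195 replicate 1 to miR-195 replicate 2 for 81.

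Among the other tested genes, the shift was larger in bright genes than in dim ones. Of the 83 genes, 74 had a mean level of 6 or above, a range that held 620 other tested genes. In this range, EMPTY replicate 2 minus replicate 1 had a median of 0.17 for the ribosomal protein genes and 0.16 for the others, and miR-195 replicate 2 minus replicate 1 had medians of -0.21 and -0.23. Among other genes with a level below -2, these medians were 0.07 and 0.13. In the range from 4 to 6, the 5 ribosomal protein genes had medians of 0.20 and -0.32, against 0.13 and -0.20 for the other genes there. The medians of these 5 genes were also larger in size than those of the brighter members. The ranges were chosen after the values were seen. A difference between bright and dim genes on the same array is not removed by subtracting a single percentile, and how it arose was not tested.

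**Figure D3:**
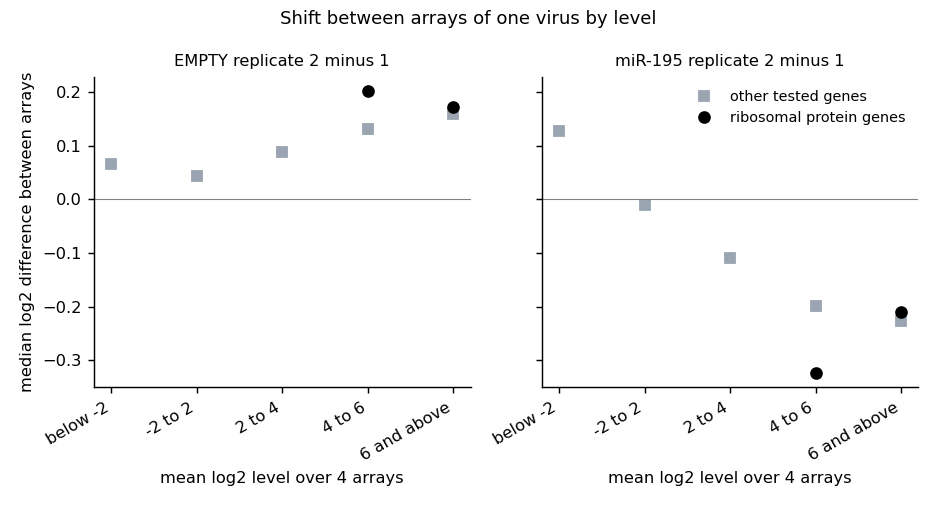
Median log2 difference between the arrays of the same virus (vertical axes) by mean log2 level over the 4 arrays (horizontal axes), for ribosomal protein genes (circles, ranges with at least 5 of them) and other tested genes (squares). At levels of 6 and above the circles and squares lie close together, at 0.17 and 0.16 on the left and at -0.21 and -0.23 on the right.

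Markers of stroma and of blood lineages were also looked at on each array. Of the 8 markers of OP9 stroma, 6 were tested, and their summed log2 level was 3.29 and 3.41 with EMPTY and 3.23 and 4.11 with miR-195. It was thus highest on miR-195 replicate 2, the array on which 42 ribosomal protein genes were lowest. With EMPTY, replicate 1, where 40 genes were lowest, had the lower sum. On EMPTY replicate 2, with the higher sum, 0 genes were lowest. Dcn and Lum, which mark such stroma, were well above background on no array. The 6 haematopoietic markers were well above background on all 4 arrays, and their summed level lay between 6.26 and 6.39. For the 6 tested markers of the B lineage the summed level was 1.497 and 1.55 with EMPTY and 1.61 and 1.99 with miR-195. These 6 markers did not move together, as 4 were higher and 2 lower with miR-195, with log2 differences from -0.54 to 1.18. Among them, Cd79a was well above background on 2 arrays only. The summed level of the 6 myeloid markers ran from 3.41 to 3.73. That of the 3 tested erythroid markers ran from 0.84 to 1.80, with Alas2 and Klf1 well above background on no array. The 9 proliferation markers had a median difference of 0.03. The part of other cells in the shift between arrays was not tested. All arrays lay on the same slide, EMPTY in the first positions and miR-195 in the last, so position and virus cannot be told apart. The probe of Ebf1, the disrupted gene, had levels of 2.01 and 1.89 with EMPTY and of 1.85 and 2.03 with miR-195, and since it is not given whether this probe lies in the disrupted part, these levels do not check the genotype.

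Among the large subunit genes, the proteins of the stalk come first, which recruit the translation factors to the ribosome. Rplp0, the base of the stalk and a common reference gene, had levels of 8.32 and 8.52 on the EMPTY arrays and of 8.59 and 8.50 on the miR-195 arrays. Only EMPTY replicate 1 lay apart, and the second miR-195 value was below that of EMPTY replicate 2. The log2 difference was 0.13 (standard error 0.13, limma adjusted p = 0.891). Rplp1 and Rplp2, the acidic proteins that bind to this base, differed by -0.02 and 0.04. Rplp1 was at 8.01 and 8.14 with EMPTY and at 8.17 and 7.94 with miR-195, so the miR-195 arrays enclosed the EMPTY arrays.

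Rpl5 and Rpl11 assemble with the 5S rRNA into a particle that, when free, restrains Mdm2 and so stabilizes p53. Rpl5 had levels of 6.08 and 6.18 with EMPTY and of 6.16 and 5.95 with miR-195. Rpl11 had levels of 8.16 and 8.33 with EMPTY and of 8.40 and 8.27 with miR-195. The groups overlapped in both, and the differences of -0.07 and 0.09 had standard errors of 0.14 and 0.13, with limma adjusted p of 0.942 and 0.920.

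Rpl22 and its paralog Rpl22l1 are known from lymphocyte development, since loss of Rpl22 in mice blocks the maturation of αβ T cells. Rpl22 had levels of 7.40 and 7.59 on the EMPTY arrays and of 7.66 and 7.45 on the miR-195 arrays. Rpl22l1 had levels of 5.88 and 6.08 with EMPTY and of 6.05 and 5.76 with miR-195. The groups overlapped in both genes, and the log2 differences were 0.06 and -0.08 (limma adjusted p = 0.955 and 0.948).

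The largest rises among all members were those of Rpl21, Rpl6, Rpl8, Rplp0 and Rps14. Rpl21, a large subunit protein, had levels of -1.32 and -1.24 with EMPTY and of -1.01 and -1.13 with miR-195. Both miR-195 values lay above both EMPTY values, and the difference was 0.21 (standard error 0.12, limma adjusted p = 0.774). Its other probe differed by 0.11, and both probes were dim, unlike those of most members. Rpl6 had levels of 7.46 and 7.66 with EMPTY and of 7.79 and 7.67 with miR-195, so that the lower miR-195 value passed the higher EMPTY value by 0.01 only. Its difference was 0.17 (limma adjusted p = 0.840), and the remaining 3 probes of Rpl6 went down to -0.05. Rpl8, which lies near the peptidyl transferase centre, had a difference of 0.16 with overlapping groups, at 7.69 and 7.95 with EMPTY and at 8.08 and 7.89 with miR-195. Its other tested probe differed by -0.06. With 1 array left out, the difference ran from 0.03 to 0.29 for Rpl8, from 0.07 to 0.27 for Rpl6 and from 0.03 to 0.22 for Rplp0, in each case lowest without EMPTY replicate 1 and highest without EMPTY replicate 2.

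The largest falls reported here, beside that of Rpl3l, were those of Rps27l and Rpl39, both with overlapping groups. Rpl39, one of the smallest proteins of the large subunit, had levels of 7.16 and 7.42 on the EMPTY arrays and of 7.38 and 6.96 on the miR-195 arrays, a difference of -0.12 (standard error 0.20, limma adjusted p = 0.934). For Rpl39, miR-195 replicate 2 lay lowest. The other tested probes of Rpl39 differed by -0.05 and 0.02. The 38 large subunit genes outside these groups of function and the paralogs, which include Rpl21, Rpl6, Rpl8 and Rpl39, comprised 27 with a difference above 0 and 11 below it, with a median of 0.03. The 19 such genes of the small subunit comprised 12 above and 7 below, with a median of 0.04 and a range from -0.10 to 0.11.

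Of the genes mutated in Diamond-Blackfan anaemia, 9 were grouped here besides Rpl5 and Rpl11, and 3 were higher and 6 lower, with a median log2 difference of -0.02. The group is not a full list of such genes, and others stand among the remaining members. Its split therefore holds for these 9 only. Rps19, the gene most often mutated in this anaemia, had levels of 6.51 and 6.65 with EMPTY and of 6.61 and 6.37 with miR-195, a difference of -0.09 (standard error 0.14, limma adjusted p = 0.933). Rps24, the predicted target whose start is printed above, had levels of 8.08 and 8.13 with EMPTY and of 8.08 and 8.08 with miR-195. Its 4 values lay closer together than those of the other genes named here, and the difference was -0.02 (95% interval from limma -0.32 to 0.28, adjusted p = 0.982). The 3 probes of Rps24 differed by between -0.05 and 0.03.

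Rps10, of the small subunit, had levels of 8.29 and 8.42 with EMPTY and of 8.52 and 8.38 with miR-195, a difference of 0.09. The miR-195 arrays of Rps10 enclosed EMPTY replicate 2, so the groups overlapped. The differences of Rps7, Rps26, Rps29, Rpl35a and Rpl15 were -0.10, -0.05, 0.07, -0.01 and 0.02. In none of the 9 genes of this group did the groups separate.

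Further genes of the small subunit are known for a role of their own. Rps14, whose loss through a deletion of the long arm of a human chromosome underlies an acquired anaemia, had levels of 8.38 and 8.48 with EMPTY and of 8.63 and 8.49 with miR-195. The lower miR-195 value lay 0.01 above the higher EMPTY value, and the difference was 0.12 (standard error 0.13, limma adjusted p = 0.888). Rps6, which S6 kinase phosphorylates downstream of mTORC1, had levels of 7.81 and 7.90 with EMPTY and of 8.005 and 7.70 with miR-195. Here the miR-195 arrays held both the highest and the lowest value, and the mean difference was -0.00 (95% interval from limma -0.40 to 0.40).

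Rps27a is made as a fusion with ubiquitin, and Rpsa also serves as a laminin receptor. Rps27a had levels of 8.50 and 8.68 on the EMPTY arrays and of 8.72 and 8.46 on the miR-195 arrays. Rpsa had levels of 7.85 and 8.02 with EMPTY and of 8.05 and 7.99 with miR-195. The groups overlapped in both, with differences of -0.01 and 0.09 and limma adjusted p of 0.997 and 0.923.

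The paralogs are relatives of a ribosomal protein gene, several of which take its place in certain tissues, and 6 of the 8 grouped here were tested. Rpl22l1, given above with Rpl22, was left out of this group and counts among the other 77 genes. Rpl26l1, annotated as a pseudogene, was kept in it. The 6 tested genes of the group had 1 difference above 0 and 5 below it, with a median of -0.09. Without miR-195 replicate 2, however, there were 4 above and 2 below. The other 77 genes had 48 above and 29 below, with a median of 0.03 that fell to -0.07 after median scaling and to -0.01 after quantile normalization. Rpl3l, the counterpart of Rpl3 in skeletal and heart muscle, had levels of -0.68 and -0.64 on the EMPTY arrays and of -0.95 and -1.01 on the miR-195 arrays. Both miR-195 values lay below both EMPTY values, and the 2 arrays of each virus were close to each other, unlike in most members. The log2 difference was -0.32 (standard error 0.12, 95% interval -0.63 to -0.02), which is 0.799 times the EMPTY level, and it did not pass the threshold (limma adjusted p = 0.578).

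Rpl39l, the counterpart of Rpl39 in the testis, had levels of -2.68 and -2.76 with EMPTY and of -3.09 and -2.34 with miR-195. The miR-195 arrays again enclosed the EMPTY arrays, but here replicate 2 was the higher, and the difference was 0.01 (standard error 0.27). Rps27l, known as a p53-induced gene, had levels of 5.74 and 5.98 with EMPTY and of 5.91 and 5.55 with miR-195. Its difference was -0.13 (limma adjusted p = 0.920), with miR-195 replicate 2 as the lowest array. Rpl36al, Rpl7l1 and the pseudogene named Rpl26l1 differed by -0.10, -0.08 and -0.07.

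Several probes of the same gene allow a check within the family. Of the 83 genes, 54 had more than 1 tested probe, with up to 7 for Rpl17. In 26 of them all probes had differences of the same sign and in 28 they had both signs, and the median range between the highest and the lowest probe was 0.078. The brightest probe lay above the mean of the others in 36 genes and below it in 18, with a median gap of 0.03. In 2 genes the probes of opposite sign were more than 0.3 apart. In one of them, Rps15a, the 3 probes differed by 0.07, -0.09 and 0.88, where the last was a dim probe with levels of -5.98 and -5.38 with EMPTY and of -5.05 and -4.56 with miR-195.

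**Figure D4:**
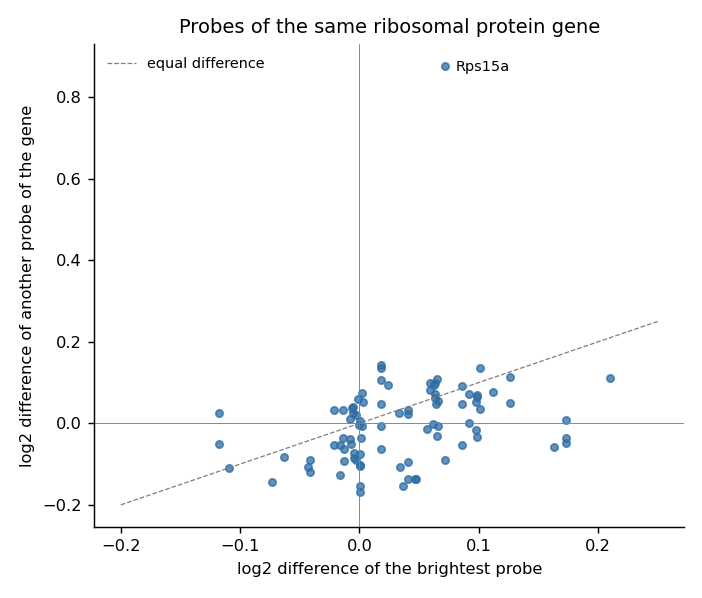
Log2 difference (miR-195 minus EMPTY) of the brightest probe of a gene (horizontal axis) and of each of its other tested probes (vertical axis), for 52 of the 54 genes with more than 1 tested probe. On the vertical axis all points but the dim probe of Rps15a (0.88) lie between -0.17 and 0.14.

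Other genes of translation were taken as lists by function. None of their genes passed the adjusted threshold in limma (background 0%), and at an unadjusted p of 0.05 the lists below held 2 genes, 1 of ribosome assembly and 1 of the p53 pathway, against a background of 8.34%. The mitochondrial ribosomal proteins, which form a separate ribosome for the products of mitochondrial DNA, had 7 differences above 0 and 67 below it among 74 tested, with a median of -0.08, which turned to 0.05 without miR-195 replicate 2. Their median level was 2.75 and 2.99 with EMPTY and 2.92 and 2.64 with miR-195, so that miR-195 replicate 2 was again lowest. For 70 of the 74, EMPTY replicate 2 lay above replicate 1, and for 73, miR-195 replicate 2 lay below replicate 1, with medians of 0.19 and -0.26. Other genes with a level from 2 to 4, where the mean level of this list lay (2.67), had medians of 0.09 and -0.11. Within each virus the list thus moved in the same direction as the cytosolic ribosomal proteins, and in its medians miR-195 replicate 1 was not above EMPTY replicate 2.

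Elongation factors and other genes with TOP mRNAs had 8 differences above 0 and 14 below it, with a median of -0.02. Initiation factors, which bring the small subunit to the mRNA, had 16 above and 12 below, with a median of 0.01. The 3 tested ribosomal proteins that go by other names had differences of 0.06 to 0.12. The 55 assembly factors had 33 above and 22 below, with a median of 0.02, and the 14 genes of RNA polymerase I, which transcribes the rRNA, had 10 above and 4 below, with a median of 0.07. The regulators had medians of 0.08 for the 17 genes of mTORC1, S6 kinase and TOP control, with 10 above and 7 below, and of 0.09 for the 15 genes of the p53 response to ribosomal stress, with 11 above and 4 below. These medians changed sign with the setting, as they ran from -0.08 to 0.08 for the assembly factors, from -0.04 to 0.12 for RNA polymerase I, from -0.03 to 0.10 for mTORC1, from -0.01 to 0.11 for p53, from -0.12 to 0.09 for elongation and from -0.09 to 0.07 for initiation. With all 4 arrays and the 75th percentile they were all smaller than the shift of the ribosomal protein genes between the 2 arrays of a virus.

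**Figure D5:**
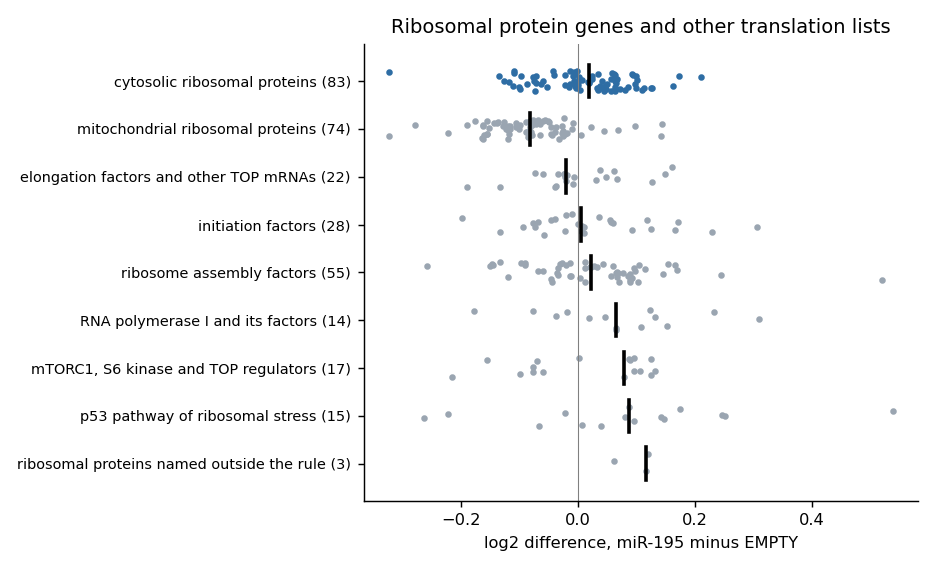
Log2 difference (miR-195 minus EMPTY, horizontal axis) of each tested gene of the cytosolic ribosomal proteins (blue) and of other lists of translation (grey), with the number of genes in brackets and the median as a black bar. The medians run from -0.08 for the mitochondrial ribosomal proteins to 0.12 for the 3 ribosomal proteins with other names, and that of the cytosolic ones is 0.02.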

How the data were processed

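RNA (about 100 ng per sample) was labelled with Cy3 and read on 4 arrays. The authors deposited, for each spot, the signal intensity after background subtraction and spatial detrending, and, in addition, their own log2 values of the probes, scaled to the 75th percentile within each array. The labels name Agilent Feature Extraction 11.5.1.1 for this step. No spot of the arrays was saturated, between 21 and 65 outlier spots of an array were omitted, and 23658 to 24671 probes per array were well above background, with a 75th percentile of 902 to 1127 and a median background of 38 to 39. The number of arrays limits the precision.

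After log2 transformation, repeated spots were averaged, and each array was set to the 75th percentile of its 39429 probes. A probe was tested if, for at least 1 virus, both arrays showed it well above background, which left 23731 probes. They were compared without a block in R 4.3.3 by limma 3.58.1 (lmFit, eBayes) after reading with data.table, version 1.17.8, two-sided, with Benjamini-Hochberg adjustment over all of them and a threshold of 0.05. The fit was checked on simulated data. Each gene was represented by its brightest probe, and lists were described by counts and medians.

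The members, their grouping by role and all lists were chosen with earlier results of these data known. Genes were named if they had a listed role, ranked among the 5 largest rises or falls on arrays where they were all above background, passed the threshold, were below background on an array, or had probes that disagreed, and a few genes that this rule selects are not reported here. The alternatives were a normexp background correction (offset 50), quantile and median scaling, the 75th percentile over probes above background on all arrays, the deposited log2 table, looser and stricter filters, eBayes with trend, the replicate block, each array left out, the mean of a gene's probes and the methods' t-test. The deposited log2 values correlated with the computed ones at r = 0.998 on each array. For the ribosomal protein genes, the largest absolute gap between these values was 0.32 to 0.35, depending on the array.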

Additional observations from a re-analysis of the deposited data

How the results depend on the processing

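Of the 83 ribosomal protein genes, 0 were called under every alternative, with the mean of a gene's probes and the methods' t-test included. Over all probes, limma called 3 after median scaling and 0 after the other scalings, filters and background corrections, and between 0 and 904 with 1 array left out (904 without miR-195 replicate 1, 3 without miR-195 replicate 2). With the replicate block 5 probes were called and 0 members. Replicates of the same number deviated with a correlation of -0.10 across 23731 probes, so no shift shared by replicates of the same number was seen. Whether the samples were prepared as pairs cannot be read from this value. With the replicate numbers crossed as a block, chosen after seeing the data, 0 probes were called.

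The median difference of the members stayed between -0.08 and 0.04 under the other settings and between -0.08 (without miR-195 replicate 1) and 0.12 (without miR-195 replicate 2) with 1 array left out. Median scaling moved the median of all probes to -0.08 and that of the members to -0.08 as well, and 11 members were then higher and 72 lower, so counts by direction depend on the scaling. The number of members whose groups do not overlap was 31 after quantile normalization and 3 after median scaling. It was 15 with the percentile over probes above background on all arrays, 4 with the normexp correction and 6 in the deposited log2 table. With 1 array left out it was between 23 and 65. Of all tested probes, 40.9%, 39.6%, 39.3%, 49.8% and 37.4% did not overlap under the first 5 settings, in this order. Between 64.5% and 78.3% did not overlap with 1 array left out. With 1 array left out, the lone array of a virus was assumed to vary like the pair of the other.

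Of 29 named and tested genes, 23 changed sign under at least 1 alternative, in 52 of 406 values. The looser and stricter filters, eBayes with trend and the replicate block leave a difference as it is. Their values are among the 406 but could not change sign, so this share understates how often signs changed. After quantile normalization Rpl35a was at 0.00033, Rpl39l at -0.056, Rplp2 at -0.052 and Rps10 at -0.0016. After median scaling Rpl11 was at -0.0062, Rpl15 at -0.074, Rpl22 at -0.035, Rpl39l at -0.092, Rplp2 at -0.060, Rps10 at -0.0044, Rps29 at -0.032 and Rpsa at -0.012. With the percentile over probes above background, Rpl35a was at 0.015, Rps27a at 0.016 and Rps6 at 0.018. In the deposited table Rpl39l was at -0.041 and Rps27a at 0.026, and with the mean of the probes Rps27a was at 0.020. With 1 array left out, the values ran from -0.063 to 0.11 for Rpl15, from -0.044 to 0.17 for Rpl22, from -0.040 to 0.12 for Rplp2, from -0.044 to 0.18 for Rps29, from -0.22 to 0.067 for Rpl22l1, from -0.23 to 0.090 for Rpl26l1, from -0.11 to 0.094 for Rpl35a, from -0.24 to 0.038 for Rpl36al, from -0.37 to 0.38 for Rpl39l and from -0.14 to 0.092 for Rplp1. They ran from -0.045 to 0.0023 for Rps24, from -0.22 to 0.12 for Rps26, from -0.13 to 0.12 for Rps27a, from -0.15 to 0.15 for Rps6, from -0.33 to 0.094 for Rpl39, from -0.17 to 0.031 for Rpl5, from -0.16 to 0.0078 for Rpl7l1, from -0.21 to 0.030 for Rps19, from -0.31 to 0.055 for Rps27l and from -0.27 to 0.071 for Rps7. Rpl3l stayed between -0.36 and -0.29 with 1 array left out, and Rpl21 between 0.15 and 0.27. The medians of the mitochondrial ribosomal proteins ran from -0.23 to 0.05 over all alternatives. The cause of these changes was not tested.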
